A study of Homo sapiens with 6 samples.

Results

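HSC4 is an established line of human oral squamous cell carcinoma, and its identity is described here against HSC3 and SAS, lines of the same kind of tumour. The HSC4 libraries, 1 from cells grown in DMEM and 1 from cells grown in HPLM, are 2 of the 6 libraries of the series and were chosen by their labels alone. The remaining 4 came from HSC3 and SAS, again with 1 library per line and medium. DMEM is a standard culture medium, HPLM is composed to resemble human plasma, and all cultures received heat-inactivated fetal bovine serum and an antibiotic and antimycotic mixture. No cells carried an engineered allele or received a drug according to the labels. The measurement was poly(A)-selected RNA, sequenced from strand-specific libraries. Each line is a single tumour line sampled as 1 culture per medium, so the p-values measure only how much these cultures spread beyond line and medium, which may be technical, and they say nothing about oral carcinomas at large.

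Oral squamous carcinomas arise from stratified squamous epithelium. In that tissue the basal layer carries the transcription factor TP63 and the keratin pair KRT5 and KRT14, which assemble into heterodimers of a type II and a type I keratin. Cells that leave the basal layer switch to other keratins, strengthen their desmosomes and, near the surface, build a cornified envelope from small proline-rich proteins and related precursors. Cell lines from such tumours keep parts of this programme to differing degrees, together with inflammatory, protease and adhesion genes of the keratinocyte.

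Values are estimated counts relative to the scaled library total (CPM). The counts are already corrected for transcript length, so levels of different genes can be set side by side. Pairs of values are given for DMEM and then HPLM. Each fold change is on the log2 scale, HSC4 over the mean of HSC3 and SAS with medium as a term, and ± is its standard error in a fit over the 6 libraries (2 residual degrees of freedom). A gene is called higher or lower in HSC4 below only if its adjusted p was under 0.05 (edgeR's quasi-likelihood test, Benjamini-Hochberg over 14123 genes) and both HSC4 libraries lay above, or below, all 4 other libraries. A gene at or near 0 on 1 side entered the test only through its level on the other. Its p-value is then no independent support for the difference. Library totals lay between 17716006 and 20171713, and Spearman's rho over the genes tested was 0.983 to 0.985 between the media of a line and 0.907 to 0.924 between lines.

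The HSC4 libraries differed from the others across much of the genome. The contrast passed the adjusted p for 5586 genes, 39.6% of those tested, 2983 of them (21.1%) toward higher and 2603 (18.4%) toward lower values in HSC4. Outside the range of both other lines in both media were 2326 higher genes (16.5%) and 2049 lower genes (14.5%). These shares are the background for every list below. Under the same rule HSC3 had 2051 higher (14.5%) and 1818 lower genes (12.9%) and SAS 2272 (16.1%) and 2260 (16%), so HSC4 had the most higher genes and lay between the other lines in lower genes. Pair by pair, 5118 genes (36.2%) passed between HSC4 and HSC3, 5623 (39.8%) between HSC4 and SAS and 5317 (37.6%) between HSC3 and SAS. With all lines in 1 model the spread is what line and medium leave. When HSC3 and SAS were treated as a single group instead, so that their own difference entered the spread, only 11 genes passed (edgeR), 8 higher, among them FAM83C, CALB2, DUOXA1, GGT7, IDH2, RAC3 and TMEM260, and 3 lower (CMTM7, IRX4 and RPL9), while 3092 had an unadjusted p under 0.05. Leaving out the DMEM library of HSC4 left 1668 calls and leaving out its HPLM library 1927, with the lone HSC4 library assumed to vary like the other lines. The split by direction depended on scaling. With TMM scaling 53.4% of the calls were toward higher values and the median of all genes was 0.01, whereas with library totals alone the split was 68.9% and the median moved to 0.16.

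Most of the differences were small. Among higher genes the HSC4 mean was at least 2-fold above the nearer line for 869 genes, at least 4-fold for 309, at least 8-fold for 131 and at least 32-fold for 20. Among lower genes the numbers were 440, 148, 58 and 6 for the same limits.

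The 4 genes given as marks of the line, TNNT3, C15orf48, C3orf14 and CYBA, were chosen with these values known and are described without a test. TNNT3, the fast skeletal muscle troponin T (chr11:1919562-1938706, plus strand, GRCh38), stood at 179.5 and 114 CPM in HSC4, 1.47 and 0.205 in HSC3 and 5.71 and 0.848 in SAS. In HSC4 43.8% of its counts were assigned to a transcript annotated without a coding sequence, and 35.7% to protein-coding transcripts. C15orf48, a small mitochondrial protein of the NDUFA4 family induced in inflammation (chr15:45430529-45448761, plus strand), stood at 25.5 and 54.9 CPM in HSC4, 0.209 and 0.36 in HSC3 and 0 and 1.64 in SAS. Both genes were far higher in both HSC4 libraries than in any other library, and TNNT3 was still counted in the DMEM libraries of the other lines. C3orf14 (chr3:62318973-62336213, plus strand) stood at 38.1 and 35.7 CPM in HSC4, 0.523 and 0.668 in HSC3 and 0 and 0.159 in SAS. CYBA, the p22phox subunit shared by several NADPH oxidases (chr16:88643283-88651152, minus strand), stood at 548 and 597 CPM in HSC4 but was also well expressed elsewhere, at 51 and 57.5 in HSC3 and 190.1 and 221 in SAS. Ranked by the distance from HSC4 to the nearer line among 1887 higher genes with a mean of 5 CPM or more in HSC4, C15orf48 was the 3rd, TNNT3 the 6th, C3orf14 the 9th and CYBA the 253rd, so CYBA separates HSC4 by level and not by presence.

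C15orf48 also hosts a microRNA precursor in an untranslated exon. The mature form encoded there, at chr15:45433098-45433118 on the plus strand (GRCh38.p14, RefSeq), is shown because the host transcript is among the strongest marks of the line, with the seed, bases 2 to 8, in capitals. Poly(A) libraries do not measure the mature form.
hsa-miR-147b-3p: gUGUGCGGaaaugcuucugcu

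FAM83C, a member of a family of proteins that recruit casein kinase 1, was the gene farthest above both lines. It stood at 109 and 105 CPM in HSC4 and at 0 and 0.0514 in HSC3 and 0.108 and 0 in SAS. The other libraries held 3 counts of it in all against 4239 in HSC4, a ratio per library total of 3010 with an exact 95% interval of 1030 to 14600 that covers counting error only. It lies at chr20:35285731-35292401 on the minus strand. CALB2, the calcium-binding protein calretinin, was at 41.8 and 13.4 CPM in HSC4, against at most 0.27 in any other library (log2 fold change 6.86). CIDEB, a lipid droplet protein, was at 18.8 and 14.6 CPM in HSC4 and listed at 0 in both HSC3 libraries, with 0.0539 and 0.265 in SAS. These genes were high in both HSC4 libraries and at or near 0 in the other lines, with no overlap. No p-value or standard error is given for them, since they entered the test only through HSC4 and were picked by their distance from the other lines.

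Further down the same ranking stood CYP7B1, an oxysterol hydroxylase, at 6.79 and 4.95 CPM in HSC4 and at most 0.053 elsewhere. STRA6, the cell-surface receptor for retinol-binding protein, was at 21.6 and 14.4 CPM in HSC4 and at most 0.323 elsewhere (log2 fold change 7.43). KLHL35 was at 11.4 and 9.31 CPM and at most 0.366 elsewhere. The remaining 3 of the 12 farthest genes were pseudogenes, whose reads can come from their parent genes or near-identical copies, so their values are uncertain. CYCSP6 was at 27.6 and 15 CPM in HSC4 and 0 in all other libraries, at least 135-fold higher against a floor of 3 counts per library. Its parent CYCS, which encodes cytochrome c, was at 399 and 567 CPM in HSC4 and 305 to 442 elsewhere with the DMEM value inside the range of the other lines. INTS4P1 was at 10.3 and 7.37 CPM and at most 0.106 elsewhere, and its parent INTS4 was itself higher in HSC4, at 55.4 and 38.7 CPM against 17.1 to 33.6. PRSS3P4 was at 5.61 and 6.13 CPM in HSC4 and 0 elsewhere, at least 37.2-fold higher.

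By level alone, with 5 CPM or more in both HSC4 libraries and under 0.5 CPM in all 4 others, 14 of the 20141 symbols above 0 (0.0695%) were restricted to HSC4. Besides FAM83C, CALB2, CIDEB, CYCSP6, INTS4P1, PRSS3P4, STRA6 and KLHL35 these were BAMBI, DACT1, DIAPH2, DUOXA1, GGT7 and HPDL. BAMBI, a decoy receptor that dampens TGF-beta and BMP signals, was at 5.99 and 5.22 CPM in HSC4 and 0.209 to 0.323 elsewhere. DACT1, a scaffold of the WNT pathway, was at 5.51 and 7.91 CPM and at most 0.262 elsewhere. DUOXA1, the maturation factor of the dual oxidase DUOX1, was at 8.79 and 6.62 CPM and at most 0.209 elsewhere. GGT7 of the gamma-glutamyltransferase family was at 15.2 and 12.6 CPM, HPDL, a mitochondrial dioxygenase, at 10.8 and 13.3, and DIAPH2, a formin, at 5.37 and 6.51, with at most 0.366, 0.371 and 0.477 elsewhere. The limits themselves decide such a count. It was 5 with limits of 0.25 and 5 CPM and 9 with limits of 1 and 10 CPM.

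**Figure D1:**
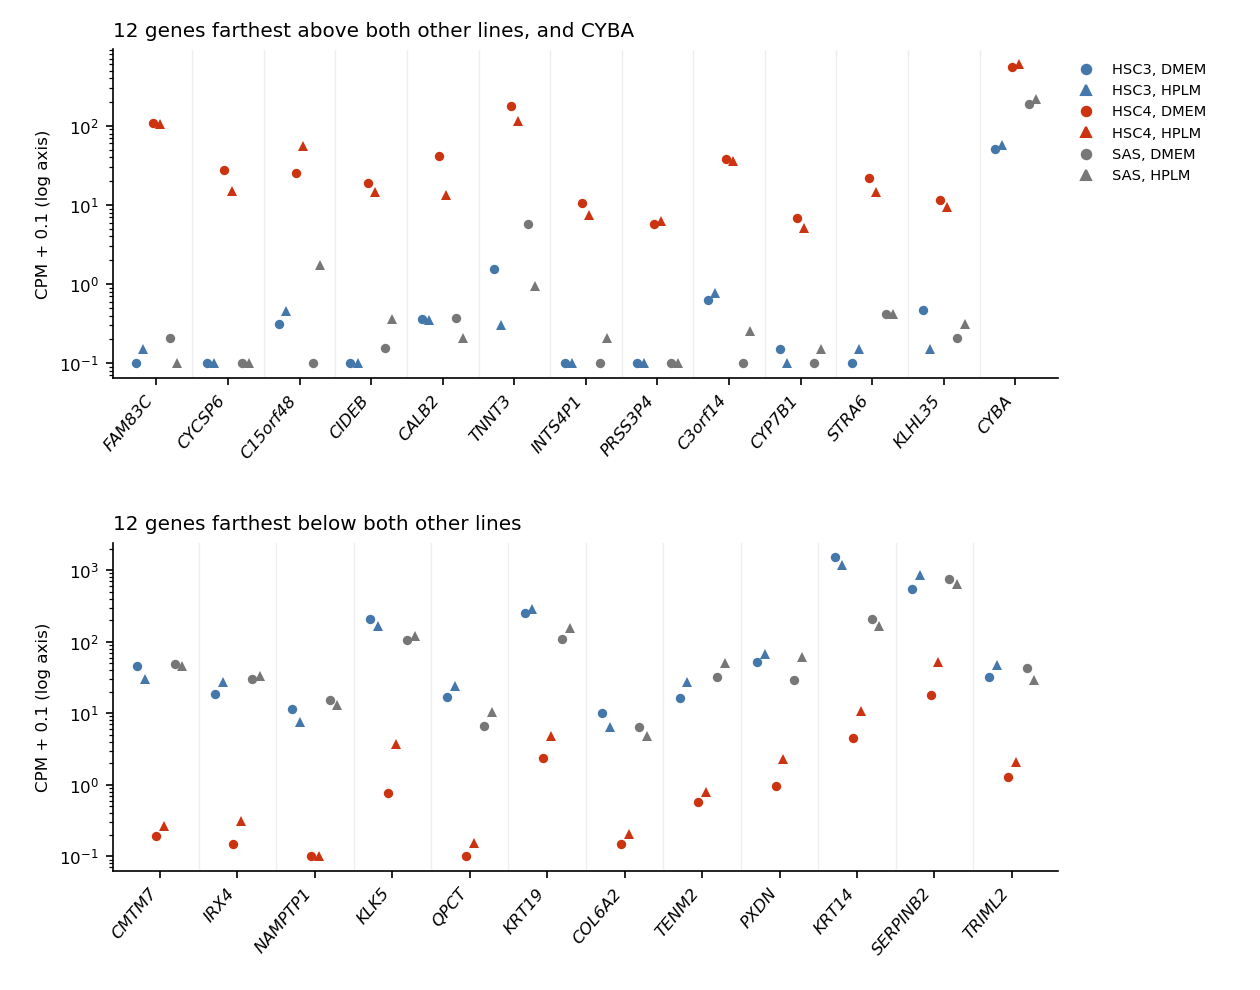
The value of each library is plotted as CPM plus 0.1 on a log axis for the 12 genes farthest above both other lines with CYBA (top) and the 12 farthest below (bottom), with colours for lines and shapes for media. In every column the 2 HSC4 points lie on 1 side of the 4 other points; CYBA is the column where the other lines are also high, at 51 to 221 CPM.

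For genes missing from HSC4 the high level was asked of both other lines and not of a single line. Their count therefore cannot be set against that of the restricted genes. By level, with under 0.5 CPM in both HSC4 libraries and 5 CPM or more in all others, there were 6 (0.0298% of 20141): CMTM7, HCLS1, IRX4, NAMPTP1, QPCT and TP73. CMTM7, a membrane protein of the MARVEL family (chr3:32391671-32483067, plus strand), was at 0.095 and 0.161 CPM in HSC4. It was at 45.5 and 30.2 in HSC3 and 49.3 and 45.8 in SAS, a log2 fold change of −8.33. IRX4, a homeobox transcription factor (chr5:1877413-1887236, minus strand), was at 0.0475 and 0.215 CPM in HSC4. It was at 18.5 and 27.2 in HSC3 and 29.7 and 33.4 in SAS, a log2 fold change of −7.65. Both genes were close to 0 in HSC4 and similar in the other lines. They entered the test only through those lines, so no p-value or standard error is given. QPCT, glutaminyl cyclase, was at 0 and 0.0538 CPM in HSC4 and 6.41 to 24.1 elsewhere. HCLS1, a cortactin homologue better known in blood cells, was at 0.285 and 0.43 CPM in HSC4, 47.7 and 48.8 in HSC3 and 6.74 and 6.2 in SAS. TP73, a relative of TP63, was at 0.427 and 0.484 CPM in HSC4 and 5.14 to 7.59 elsewhere. NAMPTP1, a pseudogene, was 0 in HSC4 and 7.35 to 15.4 CPM elsewhere, at least 76.8-fold below the mean of the other libraries.

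Other genes far below both lines were expressed at a residual level. KLK5, a kallikrein protease of the epidermis, was at 0.665 and 3.6 CPM in HSC4, 209 and 166 in HSC3 and 104 and 119.8 in SAS (log2 fold change −6.16 ± 0.53, edgeR adjusted p = 0.00128). SERPINB2, the plasminogen activator inhibitor PAI-2, was at 18 and 52 CPM in HSC4 against 542 and 852 in HSC3 and 745 and 645 in SAS (log2 fold change −4.44 ± 0.41, edgeR adjusted p = 0.00146). For both, the HPLM library of HSC4 was higher than its DMEM library and still far under the other lines. Among matrix and surface genes, COL6A2, a chain of collagen VI, was at 0.0475 and 0.108 CPM in HSC4 and 4.77 to 9.89 elsewhere. PXDN, the peroxidase that crosslinks collagen IV, was at 0.855 and 2.15 CPM against 28.7 to 66.5, and TENM2, a teneurin, at 0.475 and 0.699 against 16.4 to 49.5. TRIML2 was at 1.19 and 1.99 CPM in HSC4 and 28.8 to 47 elsewhere. RPL9, a ribosomal protein gene with many pseudogene copies, was at 379 and 594 CPM in HSC4 and 1817 to 2254 elsewhere (log2 fold change −2.10 ± 0.12, edgeR adjusted p = 0.000656); how reads were shared among its copies cannot be told from these values.

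The keratins gave HSC4 its plainest epithelial signature, a nearly lost KRT14 beside a kept KRT5. KRT14, the type I basal keratin (chr17:41582279-41586921, minus strand), was at 4.37 and 10.8 CPM in HSC4, 1502 and 1180 in HSC3 and 205 and 165 in SAS, a log2 fold change of −6.06 ± 0.43 (edgeR adjusted p = 0.000866). KRT5, its usual type II partner, was at 889.8 and 918 CPM in HSC4, 2197 and 1610 in HSC3 and 844 and 511 in SAS and was not outside their range. KRT19, the small type I keratin without a tail domain, was at 2.28 and 4.68 CPM in HSC4, 249 and 283 in HSC3 and 110.5 and 153 in SAS, a log2 fold change of −5.79 ± 0.22 (edgeR adjusted p = 0.000385). KRT14 and KRT19 were low in both HSC4 libraries with no overlap with the other lines. In RNA of whole cultures, fewer cells with a transcript and less of it per cell cannot be told apart.

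Other type I keratins were higher in HSC4. KRT15, found in basal cells, was at 76.5 and 79 CPM in HSC4, 34 and 15.4 in HSC3 and 9.43 and 9.22 in SAS (log2 fold change 2.39 ± 0.25, edgeR adjusted p = 0.00198). KRT16, induced in wounding, was at 26.4 and 54.9 CPM in HSC4 and 0.755 to 4.82 elsewhere (log2 fold change 4.06 ± 0.31, edgeR adjusted p = 0.000982). KRT13, the keratin of differentiating oral mucosa, was at 5.89 and 11.9 CPM against 0.212 to 1.1, and KRT80, a type II keratin of late differentiation, at 106 and 144 against 18.6 to 44.8. KRT10, the type I keratin of cornifying layers, was lower, at 18.4 and 17.1 CPM against 25.6 to 43.3. KRT17 at 633 and 463 CPM, KRT8 at 728 and 688 and KRT7 at 61.3 and 95.8 were inside the range of the other lines. For KRT7 this holds for the gene total only. In HSC4 71.6% of its counts were assigned to a transcript annotated without a coding sequence, and 3.3% to protein-coding transcripts. In HSC3 and SAS together 77.6% were assigned to a protein-coding transcript. KRT18, at 786 and 889 CPM against 790.2 to 1027, was inside it in HPLM and just below it in DMEM and did not pass the test (edgeR adjusted p = 0.234). KRT6A, a type II keratin of stressed epithelium, was at 303 and 453 CPM in HSC4, 252 and 333 in HSC3 and 13.1 and 8.21 in SAS, so it passed the test (log2 fold change 2.74 ± 0.23, edgeR adjusted p = 0.00127) but overlapped with HSC3. KRT7 separated SAS, at 1759 and 1780 CPM, from HSC3, at 15.4 and 21.8. Added over the 8 type I keratins that reached 10 CPM in some library, HSC4 had 1552 and 1530 CPM, below the 1720 to 3268 of the others, and over the 7 type II keratins 2114 and 2399 CPM against 2682 to 3721. KRT14, KRT16 and KRT17 are near-identical over much of their length, as are KRT6A and its neighbours, so part of the split between them depends on how reads were shared.

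**Figure D2:**
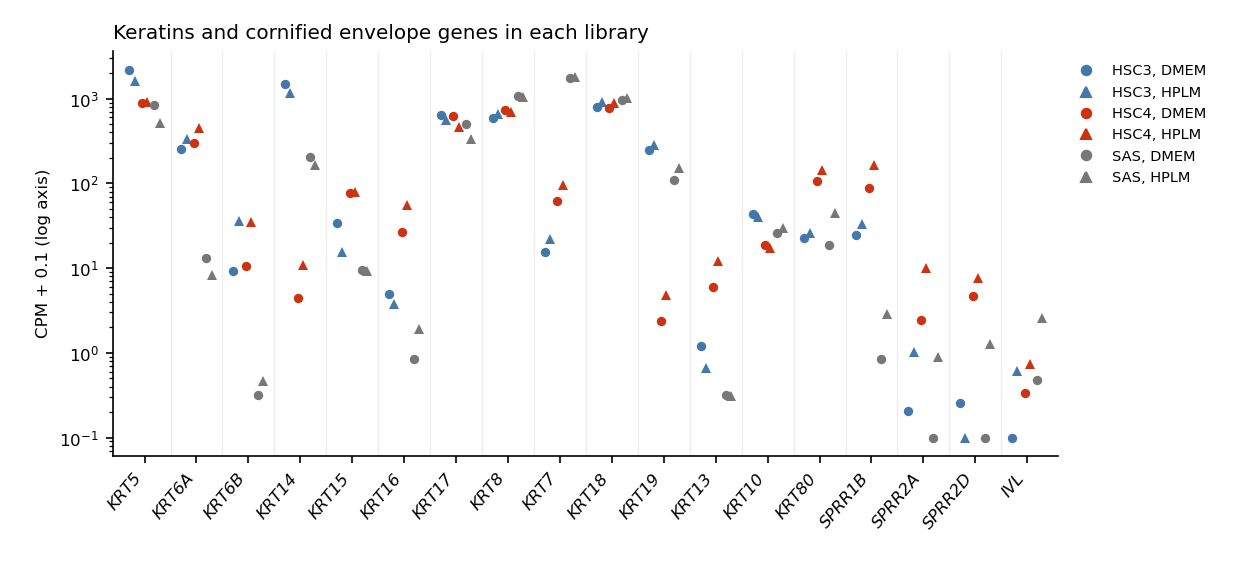
Each library's CPM plus 0.1, on a log axis, is shown for keratins and cornified envelope genes, with colours for lines and shapes for media. HSC4 lies among the other lines for KRT5, KRT17 and KRT8, far below them for KRT14 and KRT19, and above them for KRT16, KRT13, KRT80 and the SPRR genes.

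Of 20 tested genes of differentiation keratins and the cornified envelope, 8 were higher and 1 was lower (background 16.5% and 14.5%), with a median log2 fold change of 1.05 where all genes tested had 0.01. SPRR1B, a small proline-rich precursor of the envelope, was at 89.2 and 167 CPM in HSC4, 24.8 and 33.3 in HSC3 and 0.755 and 2.81 in SAS (log2 fold change 4.13 ± 0.21, edgeR adjusted p = 0.00056). The relatives SPRR2A at 2.38 and 9.95 CPM, SPRR2D at 4.61 and 7.64 and SPRR3 at 1.38 and 3.33 were low in level and still above the other lines, whose highest values were 0.925, 1.17 and 0.209. CALML3, a calmodulin-like protein of epithelia, was at 59.2 and 57.8 CPM in HSC4 and 34.2 and 18.3 in SAS and nearly absent from HSC3, at 0.209 and 0.462. IVL, involucrin, at 0.237 and 0.646 CPM and TGM1, the crosslinking transglutaminase, at 1.57 and 3.01 CPM were inside the range of the other lines.

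Of 38 squamous and epithelial transcription factors and NOTCH genes 13 were higher and 3 lower, with a median of 0.76. SOX2, a lineage factor amplified in squamous tumours, was at 13.1 and 4.46 CPM in HSC4 and 0.514 to 1.19 elsewhere (log2 fold change 3.24 ± 0.34, edgeR adjusted p = 0.00207). TFAP2C, an AP-2 factor, was at 29.7 and 30.9 CPM against 8.89 to 14.9 (log2 fold change 1.44 ± 0.12, edgeR adjusted p = 0.00127). FOXA1, a pioneer factor of glandular epithelia, was at 4.13 and 4.84 CPM against 0.431 to 1.7, and MSX2, a homeobox factor, at 6.08 and 5.22 against 0.053 to 3.34. On the lower side TBX1, a T-box factor of the pharyngeal arches, was at 1.14 and 1.51 CPM in HSC4 and 6.99 to 18.5 elsewhere (log2 fold change −3.19 ± 0.23, edgeR adjusted p = 0.000866), and MSX1 was at 2.38 and 2.1 CPM against 5.24 to 14.1. TP63 itself, at 39 and 43.7 CPM in HSC4, 76.9 and 123 in HSC3 and 49.1 and 35.6 in SAS, did not pass the test (edgeR adjusted p = 0.0704). The counts listed for NOTCH1 were low in every library, at 0.713 and 1.18 CPM in HSC4 and 0 to 0.431 elsewhere. Of those in HSC4 54.6% were assigned to a transcript with a retained intron and 0.0% to transcripts annotated as protein-coding. The level of its coding transcript therefore cannot be told from these values.

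Of 35 tested cell junction genes 14 were higher and none lower, with a median of 0.45. Desmosomal cadherins led them. DSG3, desmoglein 3 of the lower epithelial layers, was at 43.2 and 39.9 CPM in HSC4, 7.96 and 6.78 in HSC3 and 5.39 and 3.34 in SAS, a log2 fold change of 2.88 ± 0.14 (edgeR adjusted p = 0.000529). DSC2 was at 17.9 and 18.1 CPM against 3.99 to 5.45, DSC3 at 33.9 and 31.4 against 3.83 to 16.4 and DSG2 at 85.3 and 86.1 against 35.2 to 55.9. These 4 cadherin genes are neighbours on chromosome 18, where 36.0% of tested genes were higher. CLDN4, a tight junction claudin, was at 73 and 87.5 CPM in HSC4, 6.38 and 5.39 in HSC3 and 15.7 and 35.6 in SAS (log2 fold change 2.73 ± 0.25, edgeR adjusted p = 0.00149). CDH1, E-cadherin, was at 176 and 152 CPM in HSC4, 38.9 and 59.8 in HSC3 and 62 and 67.9 in SAS (log2 fold change 1.55 ± 0.17, edgeR adjusted p = 0.00228). PKP1, a desmosomal plaque protein, was at 54.8 and 71.3 CPM against 14.7 to 33, and CDH3, P-cadherin, at 213 and 188 against 93 to 130. DSP, desmoplakin, at 84.5 and 86.9 CPM and EPCAM at 229.6 and 244 CPM were inside the range of the other lines.

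Mesenchymal genes showed no common direction, with 5 of 27 higher and 6 lower and a median of 0.19. Lower in HSC4 were AXL, a receptor kinase, at 114 and 98.8 CPM against 204 to 305 (log2 fold change −1.23 ± 0.11, edgeR adjusted p = 0.00129), and CAV1, caveolin 1, at 495 and 472 against 912 to 1165 (log2 fold change −1.03 ± 0.12, edgeR adjusted p = 0.00246). TWIST2 was listed at 0 in both HSC4 libraries and at 0.837 to 11.9 CPM elsewhere. It was at least 36.2-fold below the mean of the other libraries, a bound that does not hold against the lowest of them. Higher were COL5A1, a fibrillar collagen chain, at 46.7 and 33.6 CPM against 7.28 to 14.5, and TNC, tenascin C, at 99.5 and 102 against 17.4 to 73.7. VIM, vimentin, was at 113 and 73.3 CPM in HSC4, 218 and 309 in HSC3 and 141 and 92.4 in SAS, with overlap.

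Among 30 integrin, laminin and basement membrane genes 8 were higher and 4 lower. Integrin subunits went in both directions. ITGB6, which pairs with the alpha v subunit to activate latent TGF-beta, was at 49.7 and 36.7 CPM in HSC4, 7.64 and 5.96 in HSC3 and 2.26 and 2.28 in SAS (log2 fold change 3.45 ± 0.13, edgeR adjusted p = 0.000385). ITGAV, the alpha v subunit, was lower, at 6.13 and 4.2 CPM against 36.6 and 36.1 in HSC3 and 30.8 and 23.6 in SAS (log2 fold change −2.62 ± 0.16, edgeR adjusted p = 0.000723). ITGB8, another alpha v partner, was at 15.2 and 12.7 CPM against 1.13 to 4.13, and ITGA5, the fibronectin receptor subunit, at 82.1 and 98.8 against 25.1 to 38.2. Of the laminin chains of squamous basement membrane, LAMA3 was higher, at 314 and 293 CPM against 64.7 to 197.

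Proteases and their inhibitors moved in both directions, 16 of 49 higher and 7 lower, with a median of 0.70. SERPINA1, alpha-1 antitrypsin, was at 4.08 and 7.37 CPM in HSC4, 378 and 551 in HSC3 and 77.7 and 107 in SAS, a log2 fold change of −5.20 ± 0.15 (edgeR adjusted p = 0.000355). KLK5 and SERPINB2, above, also belong to this list. In the other direction stood SERPINB3, a squamous cell carcinoma antigen, at 9.12 and 10.4 CPM in HSC4 and 0 to 1.08 elsewhere (log2 fold change 5.36). Its near-identical neighbour SERPINB4 was at 4.99 and 2.85 CPM against 0 to 0.411, and reads of the pair may be shared. SERPINB13 was at 5.84 and 3.82 CPM against 0 to 0.565 and SERPINB7 at 39.6 and 58.3 against 1.99 to 29.7. These serpins lie in the same cluster on chromosome 18 as SERPINB2, which was lower. The elastase inhibitors PI3, at 54.4 and 443 CPM against 2.21 to 36.3, and SLPI, at 230.4 and 508 against 33.6 to 109, were higher, and both were higher in the HPLM than in the DMEM library of HSC4. MMP9, a gelatinase, was at 36.6 and 36.6 CPM against 0.795 to 23.6, and SPINT1, an inhibitor of epithelial serine proteases, at 160.1 and 149 against 46.9 to 62.4.

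Subunits of the NADPH oxidases, the enzymes that make superoxide or hydrogen peroxide, were higher for 5 of 12 tested and lower for none, with a median of 0.51. Beside CYBA these were DUOXA1, DUOX1, NCF1 and RAC1. Without CYBA, a marker chosen with its values known, 4 of 11 (36.4%) were higher. DUOX1, the oxidase that DUOXA1 matures, was at 13.2 and 14.4 CPM in HSC4, 2.72 and 4.57 in HSC3 and 1.4 and 2.76 in SAS (log2 fold change 2.38 ± 0.22, edgeR adjusted p = 0.00147). DUOXA1, near 0 in the other lines, stood at a log2 fold change of 5.67. The starts of this divergent pair overlap on opposite strands, and whether strand was used in quantification is not given in the sources used here. NCF1, p47phox, was at 4.28 and 3.17 CPM against 0.205 to 0.424; it has near-identical pseudogenes. CYBA has no catalytic activity alone, and of its catalytic partners NOX1 was at 0.713 and 0.484 CPM in HSC4 and 0.265 to 0.617 elsewhere.

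Of 26 nuclear cytochrome c oxidase genes and relatives 6 were lower and 3 higher (C15orf48, COX5A and COX19), and 2 of 25 were higher without the marker C15orf48. COX7C was at 462 and 551 CPM in HSC4 and 954 to 1064 elsewhere (log2 fold change −0.97 ± 0.09, edgeR adjusted p = 0.00173), COX6A1 at 615 and 517 against 850.4 to 1078 and COX5B at 239 and 247 against 300.5 to 561. NDUFA4, whose place in the complex the C15orf48 protein is known to take, was at 115 and 153 CPM in HSC4 and 83.8 to 137 elsewhere and did not pass the test (edgeR adjusted p = 0.059). The median of this list was −0.10, and without scaling factors it was 0.05 with 4 genes in each direction, so no direction is given for the list. None of 13 genes of mitochondrial DNA was higher or lower.

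Interferon-stimulated genes were higher for 14 of 35 tested and lower for none, with a median of 1.5. The summed level of the list was 1767 and 951.5 CPM in HSC4, 1608 and 1572 in HSC3 and 577.7 and 555 in SAS, so the sum overlapped with HSC3 while many single members did not. Type I interferon acts through a transcription complex that holds IRF9 and binds the interferon-stimulated response element. BST2, tetherin, was the member farthest from the other lines, at 72.9 and 65.8 CPM in HSC4, 2.35 and 4.21 in HSC3 and 0.27 and 0.053 in SAS (log2 fold change 6.56 ± 0.29, edgeR adjusted p = 0.000398). IFI6, an interferon-induced mitochondrial protein, was at 172 and 68.6 CPM in HSC4 and 5.67 to 13.8 elsewhere (log2 fold change 3.64 ± 0.25, edgeR adjusted p = 0.000833). IFI44L was at 9.69 and 1.45 CPM against 0.053 to 0.431, and IFI44 at 126 and 42 against 1.17 to 22.4. In HSC4 the DMEM library was above the HPLM library for all of these. Of the antiviral sensors and effectors OAS1 was at 37.4 and 16.9 CPM against 3.02 to 8.58, OASL at 14.4 and 3.01 against 0.477 to 2.43, and DDX58, which encodes the RNA sensor RIG-I, at 21.7 and 6.24 against 2.48 to 4.78. IRF9 was at 82.7 and 27.3 CPM against 8.16 to 22.4, with the HPLM value close to the highest of the other libraries. IFIT1, at 51.8 and 6.67 CPM, and MX1, at 32.5 and 9.79, had a DMEM value above and an HPLM value inside the range of the other lines.

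The response element was looked for as a pair of GAAA runs with any 2 bases between them, on both strands, in the 250 bases before each gene start (RefSeq, GRCh38.p14). It was in 8 of the 11 higher interferon-stimulated genes with a window in the table (72.73%), in 7 of 15 tested members that were not higher (46.67%), in 2.41% of the windows of all genes tested and in 3.07% of all 27305 windows. The windows of 4 of the genes described above are shown because they carry it at differing places and numbers. Capitals mark the match, and its first base is given as the number of bases before the gene start.
BST2 (chr19:17405631-17405880, minus strand, starting 130 and 124 bases before): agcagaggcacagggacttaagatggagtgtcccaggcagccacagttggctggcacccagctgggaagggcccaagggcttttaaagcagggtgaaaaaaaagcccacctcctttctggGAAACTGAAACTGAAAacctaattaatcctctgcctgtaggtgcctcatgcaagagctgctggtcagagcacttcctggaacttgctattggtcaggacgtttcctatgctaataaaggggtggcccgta
IFI6 (chr1:27672193-27672442, minus strand, starting 156, 115 and 93 bases before): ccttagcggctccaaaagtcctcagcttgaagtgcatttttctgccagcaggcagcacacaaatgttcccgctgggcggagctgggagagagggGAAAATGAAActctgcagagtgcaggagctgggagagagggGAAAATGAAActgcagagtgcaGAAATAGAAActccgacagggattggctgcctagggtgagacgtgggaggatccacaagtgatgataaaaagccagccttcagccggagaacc
IFI44L (chr1:78620198-78620447, plus strand, starting 164 and 73 bases before): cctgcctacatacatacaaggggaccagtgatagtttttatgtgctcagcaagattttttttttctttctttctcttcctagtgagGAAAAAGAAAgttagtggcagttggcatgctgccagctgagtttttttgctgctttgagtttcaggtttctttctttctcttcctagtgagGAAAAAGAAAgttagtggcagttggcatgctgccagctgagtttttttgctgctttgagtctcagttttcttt
IFI44 (chr1:78649539-78649788, plus strand, starting 18 bases before): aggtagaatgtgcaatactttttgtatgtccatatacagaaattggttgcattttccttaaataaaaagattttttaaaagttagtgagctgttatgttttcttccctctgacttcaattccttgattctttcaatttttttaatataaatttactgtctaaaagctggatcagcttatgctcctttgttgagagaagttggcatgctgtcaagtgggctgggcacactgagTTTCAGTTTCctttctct
In BST2 the matches overlap, in IFI6 and IFI44L they are spaced apart, and in IFI44 the single match lies on the opposite strand. A match is a run of letters and not evidence of binding, and HERC6, IRF9 and OAS1 were higher with no match in their windows.

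Antigen presentation genes were higher for 7 of 29 and lower for 1, with a median of 0.33. B2M, the light chain of class I molecules, was at 4145 and 3188 CPM in HSC4, 1661 and 1636 in HSC3 and 1170 and 1113 in SAS (log2 fold change 1.41 ± 0.10, edgeR adjusted p = 0.000866). In HSC4 51.9% of the B2M counts were assigned to a transcript annotated for nonsense-mediated decay and 0.4% to protein-coding transcripts. The same transcript led in the other lines, with 51.3%. HLA-C was at 527 and 395 CPM against 92.4 to 240, whereas HLA-B, at 259 and 202 CPM, overlapped with HSC3 and was far above SAS, at 25.5 and 20.4. Counts of these polymorphic paralogues depend on the reference alleles. MICA, a stress ligand of natural killer cells, was at 40.9 and 33.5 CPM against 5.45 to 11.9. CD74, the class II invariant chain, was the lower member, at 0.713 and 1.34 CPM in HSC4, 69.5 and 87.7 in HSC3 and 9.49 and 9.96 in SAS (log2 fold change −4.76 ± 0.21, edgeR adjusted p = 0.000398).

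Of 51 cytokines, chemokines and interleukin receptors 14 were higher and 5 lower. IL6 was at 164 and 189 CPM in HSC4, 6.44 and 16 in HSC3 and 6.47 and 40.7 in SAS (log2 fold change 3.77 ± 0.44, edgeR adjusted p = 0.00269). CSF1, the macrophage growth factor, was at 39.5 and 50.7 CPM against 3.45 to 14.3 (log2 fold change 2.64 ± 0.13, edgeR adjusted p = 0.000447). CXCL10, an interferon-induced chemokine, was low but higher, at 5.08 and 1.56 CPM against 0 to 0.523. IL24 was lower, at 3.85 and 3.93 CPM in HSC4, 72 and 170.5 in HSC3 and 16.2 and 22.7 in SAS (log2 fold change −3.57 ± 0.29, edgeR adjusted p = 0.00112), as was IL20RB, a receptor chain for that cytokine, at 0.855 and 3.98 against 8.52 to 14. The neutrophil chemokine CXCL8, at 129.6 and 196 CPM, and the alarmins IL1A, at 135 and 197, and IL1B, at 296 and 354, were inside the range of the other lines. Of 26 complement and coagulation genes 8 were higher and 5 lower. C3 was at 313 and 378 CPM against 10.1 to 183 and C1S at 15.2 and 16.9 against 0.97 to 9.92. F2R, the thrombin receptor PAR1, was lower, at 5.04 and 2.15 CPM against 16.3 to 87.7 (log2 fold change −3.76 ± 0.24, edgeR adjusted p = 0.000723).

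Growth factor pathways differed by component. In the list of EGF and other receptor kinases, their ligands and feedback genes 2 of 38 were higher and 7 lower, and without scaling factors the counts were 5 and 5, so the list as a whole has no direction. Among its feedback genes DUSP6, a phosphatase of ERK, was at 46.1 and 49.2 CPM in HSC4, 180 and 124 in HSC3 and 149.6 and 97.3 in SAS (log2 fold change −1.49 ± 0.18, edgeR adjusted p = 0.00288). SPRY4 was at 5.18 and 5.33 CPM against 14.7 to 21.6. MET, the receptor of hepatocyte growth factor, was at 73.9 and 81.8 against 97.6 to 164, and EGFR, at 214 and 193 CPM in HSC4, lay between 402 and 349 in HSC3 and 112 and 96.7 in SAS. FGF11 was higher, at 33.6 and 55 CPM against 0.808 to 9.79.

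TGF-beta and BMP pathway genes were higher for 10 of 34 and lower for 2, with a median of 0.58. The receptor TGFBR1 was at 51.9 and 54.8 CPM in HSC4, 26.3 and 20.2 in HSC3 and 13.9 and 11.6 in SAS (log2 fold change 1.64 ± 0.12, edgeR adjusted p = 0.000965). Its signal transducers SMAD3, at 119 and 97.6 CPM against 47.7 to 69.9, and SMAD2, at 72.8 and 59.3 against 22.7 to 54.1, and the ligand BMP2, at 19.4 and 18.2 against 3.07 to 5.34, were also higher. Of 34 WNT pathway genes 7 were higher (20.6%) and 5 lower (14.7%), near the background of 16.5% and 14.5%. WNT4 was at 5.46 and 5.27 CPM against 0.212 to 1.54, while WNT5B was at 1.9 and 1.51 against 6.2 to 17.4. WNT3A was at 0 and 0.0538 CPM against 3.4 to 4.4 and entered the test only through the other lines. It had 1 count in HSC4 against 298, a ratio of 140 with an exact 95% interval of 24.9 to 5540. NKD2, a WNT inhibitor, was listed at 0 in HSC4 and at 0.628 to 1.03 CPM elsewhere, at least 4.83-fold below the mean of the other libraries. In the IGF axis, 2 of 16 were higher (12.5%) and 3 lower (18.8%), also near the background. INSR, the insulin receptor, was at 0.475 and 0.915 CPM against 1.49 to 5.04, and IGFBP6 at 80.3 and 78 against 7.58 to 54.4.

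Of 42 cell cycle regulators and damage response genes 7 were higher and 4 lower, near the background, with a median of 0.01. CDKN1A, the p21 inhibitor, was at 89 and 98.9 CPM in HSC4 against 28.4 to 76.6, and AEN, an apoptosis nuclease, at 45.3 and 56.6 against 18.9 to 26.7, whereas MDM2 was lower, at 11.2 and 10.2 against 11.4 to 35.6. CCND1, cyclin D1, was at 292 and 242 CPM against 333 to 676, and CDKN2A at 23.5 and 21.7 against 38.6 to 68.4 (log2 fold change −1.19 ± 0.16, edgeR adjusted p = 0.00383).

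Among enzymes of retinoid and aldehyde metabolism 8 of 24 were higher and 3 lower. With STRA6 these included CYP26B1, which degrades retinoic acid, at 8.12 and 8.12 CPM against 1.23 to 1.83, and ALDH3A1, a corneal aldehyde dehydrogenase, at 10.3 and 3.93 against 0 to 1.83. AHR, the aryl hydrocarbon receptor, was at 47.2 and 49.6 CPM against 15.6 to 23.6 (log2 fold change 1.31 ± 0.16, edgeR adjusted p = 0.00288), and GSTM3, a glutathione transferase, at 45.7 and 48.7 CPM in HSC4, 1.36 and 0.668 in HSC3 and 18 and 21.9 in SAS. NRF2 target genes stayed under the background on the higher side, with 3 of 34 higher and 4 lower, among them PGD, of the pentose phosphate pathway, at 60.5 and 47.5 CPM against 124 to 194, and TXNRD1 at 119.5 and 131 against 196 to 309. FTH1, ferritin heavy chain, was higher, at 7736 and 4107 CPM against 1602 to 3493; it has many processed copies. Of 28 listed hypoxia-inducible genes 6 were higher (21.4%, against 16.5% over all genes tested) and none lower, which holds for the listed genes only. CA9, carbonic anhydrase IX, led them, at 8.74 and 27.9 CPM against 0.523 to 2.42 (log2 fold change 4.0 ± 0.23, edgeR adjusted p = 0.000656). MT1F, a metallothionein, was at 33 and 32.9 CPM against 3.67 to 9.66.

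Of 18 mucin and glandular genes 5 were higher, among them MUC1 at 7.5 and 13.1 CPM against 0.105 to 4.21 and MUC16 at 2.75 and 4.3 against 0 to 0.103. In HSC4 77.4% of the MUC1 counts were assigned to a transcript annotated without a coding sequence, and 12.1% to protein-coding transcripts. Of 22 lipid mediator genes 4 were higher (18.2%, background 16.5%) and 5 lower (22.7%, background 14.5%). PTGS1, the constitutive cyclooxygenase, was at 3.09 and 2.96 CPM in HSC4, 56.5 and 51.6 in HSC3 and 7.44 and 6.15 in SAS, and LTB4R, a leukotriene receptor, at 26.2 and 26.2 CPM against 3.07 to 10.1. S100A14, an epithelial calcium-binding protein, was at 14.1 and 39.2 CPM in HSC4 against 163 and 335 in HSC3 and 434 and 472 in SAS (log2 fold change −3.77 ± 0.32, edgeR adjusted p = 0.00127), the lower of 2 S100 genes apart among 15. SLC16A3, the lactate exporter, was at 18.6 and 26.2 CPM against 65 to 205. Of 31 HOX genes 6 were higher (19.4%) and 4 lower (12.9%), near the background of 16.5% and 14.5%. HOXB7 was at 24.6 and 20.9 CPM against 0.954 to 4.4 and HOXB9, of the same cluster, at 0.38 and 0.484 against 3.34 to 4.93. Of 29 listed cancer-testis antigens 8 could be tested, of which 4 were higher and 1 lower. Members at 0 elsewhere, such as MAGEA3, entered the test only through HSC4, so these counts are not read against the shares over all genes (16.5% and 14.5%). MAGEA4 was 0 in HSC4, 78.9 and 87.6 CPM in HSC3 and 1.02 and 1.06 in SAS. That is at least 277-fold below the mean of the other libraries, a bound set by HSC3 that does not hold against SAS alone. MAGEA3 was at 1.71 and 3.98 CPM in HSC4 and 0 elsewhere, at least 18-fold higher. Members of this family are near-identical, so reads may be shared.

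**Figure D3:**
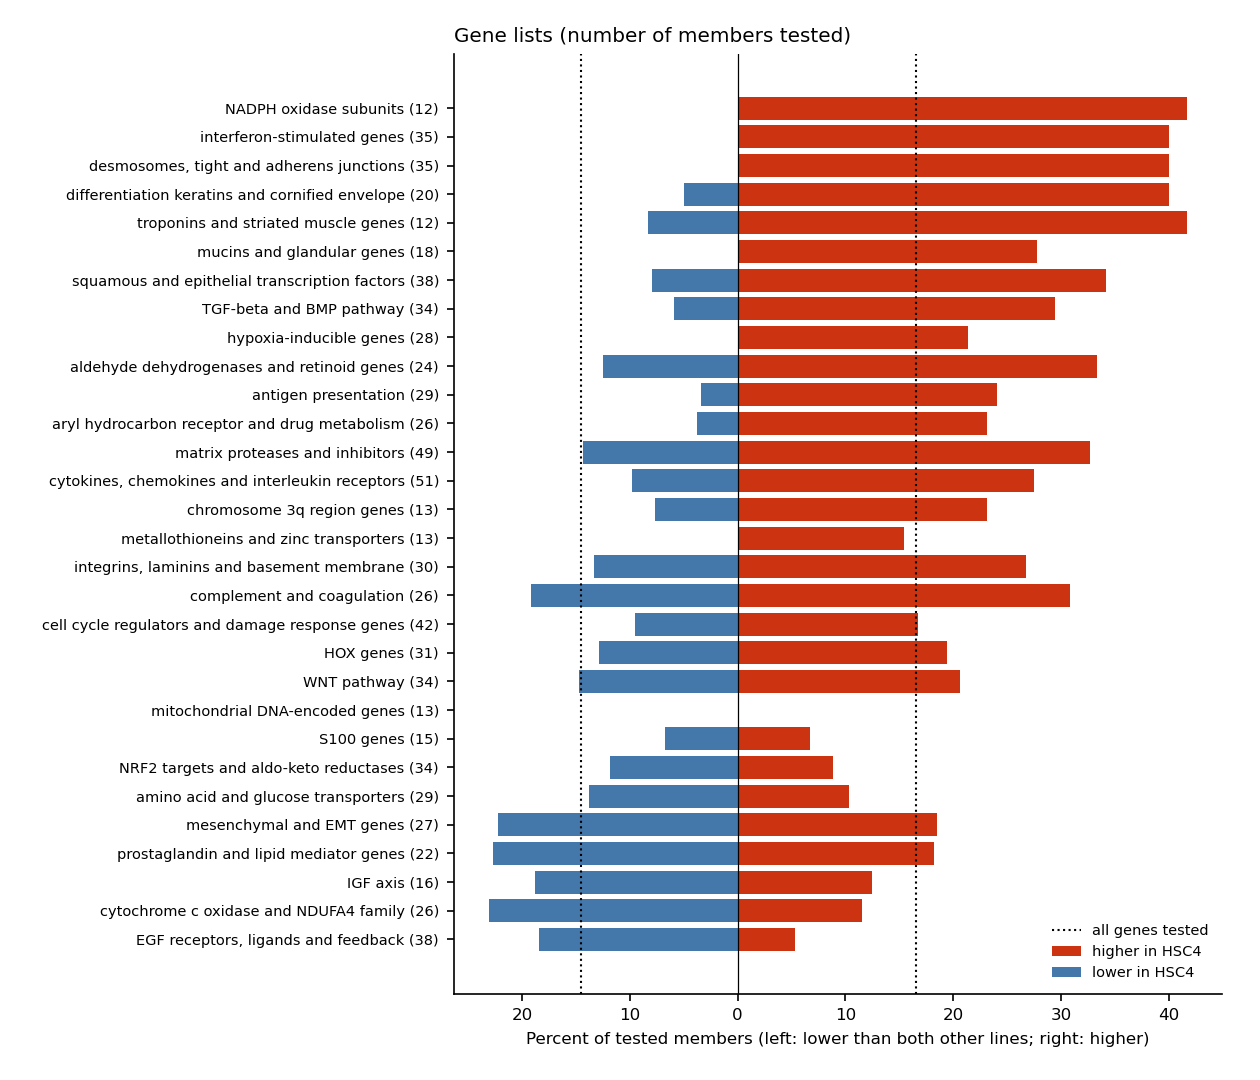
Bars give the percent of tested members of each list (number in brackets) that were higher (right) or lower (left) than both other lines in both media, and dotted lines the shares over all genes tested, 16.5% and 14.5%. NADPH oxidase, interferon-stimulated, junction, cornified envelope and muscle genes have 40.0% to 41.7% on the higher side (the first and the last include the markers CYBA and TNNT3), lists of fewer than 12 tested genes are not drawn, and the EGF list has 5.3% higher and 18.4% lower.

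Markers of other cell types were looked at in all libraries. Of 12 tested troponin and striated muscle genes 5 were higher (TNNT3, TNNT2, TNNI2, TNNC1 and TPM1) and 1 lower (TNNT1). Without TNNT3, a marker chosen for its level, 4 of 11 (36.4%) were higher. TNNI2, a fast skeletal troponin I, was at 6.46 and 7.42 CPM against 0.154 to 5.71, and TNNC1, the slow skeletal and cardiac troponin C, at 1.38 and 1.02 against 0 to 0.108. TNNT1, the slow skeletal troponin T, was at 19.5 and 29.4 CPM in HSC4 against 38.8 to 138. DES, MYOD1, CKM and ACTA1, which define muscle cells, were at or near 0 in every library and did not reach the level needed for the test. TPM1, a tropomyosin of many cell types, was higher, at 343 and 452 CPM against 68.8 to 134 (log2 fold change 2.02 ± 0.08, edgeR adjusted p = 0.000386). Of 8 fibroblast markers 2 could be tested, COL1A1 at 3.75 and 3.98 CPM in HSC4 and 0.862 to 5.6 elsewhere and DCN at no more than 0.742 CPM anywhere, and neither passed the test. The sum over the fibroblast list was 4.32 and 5.0 CPM in HSC4 and 2.05 to 6.53 elsewhere. PECAM1 of endothelium stayed at or below 0.366 CPM in every library and CDH5, the only endothelial marker that could be tested, did not pass, and of 6 leukocyte markers the only member apart was CD68, lower in HSC4, at 40.6 and 48.2 CPM against 60.9 to 80.6. Of 3 tested melanocyte markers 1 was higher, MITF, at 14.1 and 13.6 CPM against 2.32 to 8.73. The other tested members had negative log2 fold changes, and the median was −0.69. MITF made up most of the melanocyte sum of HSC4 given next. The summed level was 44.0 and 52.1 CPM for leukocyte markers in HSC4 against 63.82 to 85.96 elsewhere, 0.998 and 0.538 against 0.36 to 2.49 for endothelial and 15.4 and 14.6 against 4.959 to 11.97 for melanocyte markers. The part of these markers in other results was not tested. Of the 8 squamous markers DSG3, PKP1 and CDH3 were higher and KRT14 lower, and the sum of the 8 was 2180 and 2187 CPM in HSC4, 4798 and 3960 in HSC3 and 1758 and 1181 in SAS.

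Where a gene lay was related to whether it was higher or lower in HSC4. On chromosome 15, 61.1% of 465 tested genes were higher and 1.1% lower, with a median log2 fold change of 0.77, and on chromosome 20 the shares among 379 were 55.9% and 1.3% with a median of 0.64. Chromosome 18 had 36.0% higher and 2.5% lower, and chromosome 7 had 30.3% and 7.9%. Chromosomes 21 (4.4% higher, 42.2% lower), 5 (5.6% and 33.7%), 4 (6.2% and 29.4%) and 17 (7.4% and 25.3%) leaned the other way. The median on chromosome 15 was 0.73 against HSC3 alone and 0.81 against SAS alone, and 0.82 in DMEM and 0.74 in HPLM. The medians of these 8 chromosomes kept their sign under each scaling, including library totals alone.

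**Figure D4:**
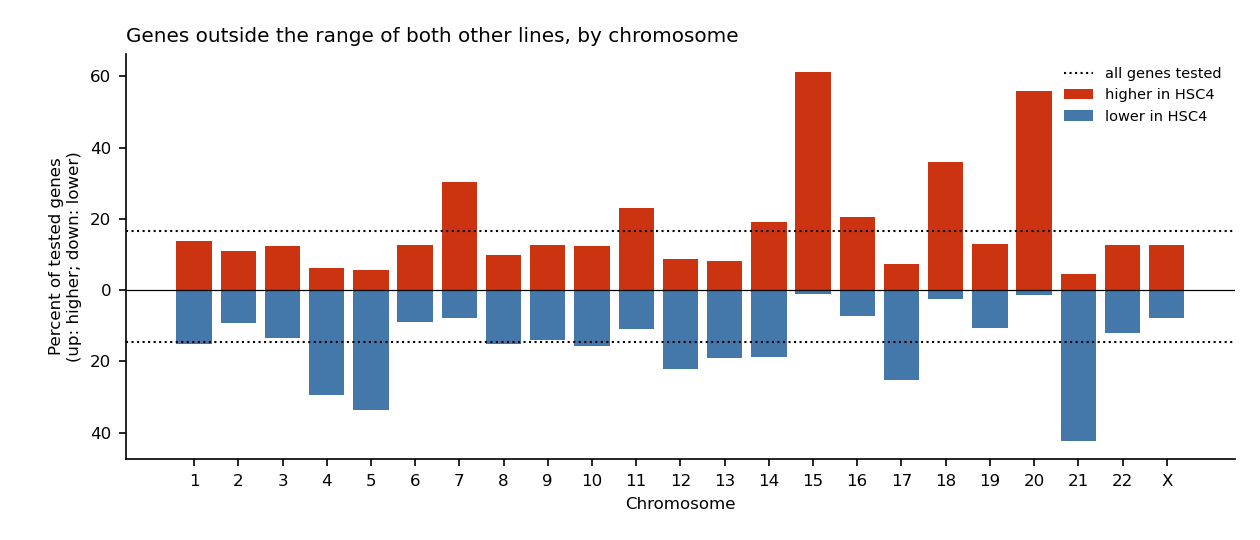
Bars give, for each chromosome, the percent of tested genes higher (up) or lower (down) in HSC4 than in both other lines in both media, with dotted lines at the shares over all genes, 16.5% and 14.5%. Chromosomes 15 and 20 stand out on the higher side at 61.1% and 55.9%, and chromosome 21 on the lower side at 42.2%.

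The shift ran along whole chromosomes in some cases and along parts in others. In windows of 25 neighbouring tested genes, the median was above 0 in 18 of 18 windows of chromosome 15, in 15 of 15 of chromosome 20 and in 0 of 5 of chromosome 21. On chromosome 7 the 19 positive windows ran without a break from FAM20C to PMPCB, and the 8 windows from DNAJC2 on were negative. Chromosome 14, with 19.0% higher and 18.8% lower genes, held 5 positive windows in a row from ERO1A to ACOT4, with medians of 0.51 to 0.98, and the 7 windows after them were negative. On chromosome 11 the highest window, from FCHSD2 to NEU3, had a median of 1.16, and on chromosome 5 the lowest, from PLEKHG4B to IRX2, −1.27.

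**Figure D5:**
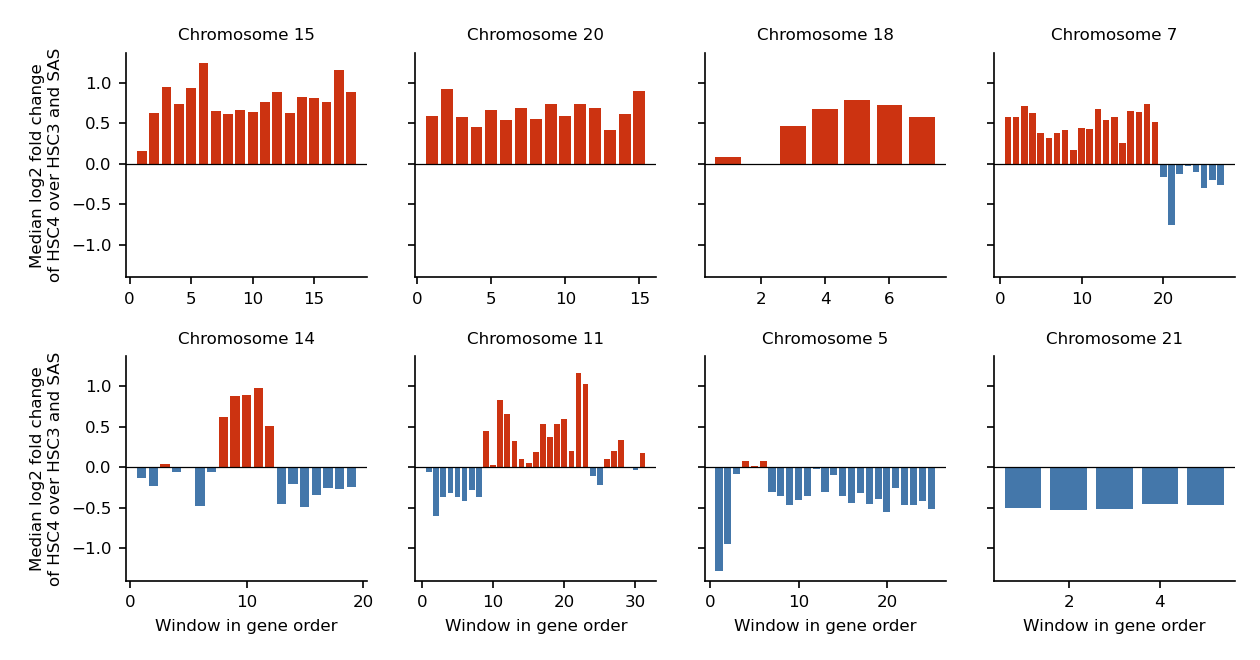
Each bar is the median log2 fold change of HSC4 over HSC3 and SAS in a window of 25 neighbouring tested genes (the last window of a chromosome is longer), in gene order along 8 chromosomes. All windows are above 0 on chromosomes 15 and 20 and below 0 on chromosome 21; chromosomes 7, 14 and 11 change sign along their length.

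Several of the genes that mark HSC4 lie in such stretches. C15orf48, DUOXA1 and DUOX1 belong to a run of 9 neighbouring tested genes on chromosome 15 that all lay above the other lines, 8 of them past the adjusted p (SORD2P to HMGN2P46, median log2 fold change 1.82). FAM83C sits in a run of 7 on chromosome 20 (MMP24 to FER1L4, median 1.22), and the SERPINB genes in a run of 8 on chromosome 18 (KDSR to SERPINB7, median 1.53). Without regard to p, 21.2% of genes lay above all 4 other libraries and 19.8% below, and over the genome there were 247 runs of 3 or more neighbours above and 223 below. The longest above, PAK6 to RMDN3 at chr15:40238759-40755851, held 13 genes, all past the adjusted p, and the longest below, from ATP5PF to MAP3K7CL on chromosome 21, held 11, of which 10 passed. IRX4 lies in the lowest window of chromosome 5. When the genes of chromosomes 4, 5, 7, 15, 17, 18, 20 and 21 were left out, 13.8% of the remaining 10264 genes were higher, and 12 of 27 interferon-stimulated genes were still higher, as were 7 of 17 genes of the cornified envelope list and 10 of 26 transcription factors, whereas the junction list went to 7 of 24, proteases and inhibitors to 5 higher and 5 lower of 31, and NADPH oxidase subunits to 1 of 6. The cytokine list went to 6 of 31 (19.4%), TGF-beta and BMP genes to 5 of 23 (21.7%) and antigen presentation to 5 of 24 (20.8%). Hypoxia-inducible genes stood at 6 of 23 (26.1%) and mucin and glandular genes at 5 of 15 (33.3%).

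The genes farthest from the other lines differed in their promoters from the average gene tested, but lay close to the average of all 27305 windows. Among genes at least 8-fold above the nearer line, 79 of 131 had a RefSeq window, and their median ratio of observed to expected CpG was 0.54, as against 0.81 over the 10680 tested genes with a window. For the 42 genes at least 8-fold below it was 0.60. A TATAAA box, on either strand, was in 11.39% of the windows of the former, in 9.52% of the latter and in 5.86% over all tested genes. Over all 27305 windows, of genes tested or not, the CpG ratio was 0.56 and 11.13% held the box. The contrast is thus with the tested genes only. These are descriptions of the letters, with no test.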

How the data were processed

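RNA of the 6 libraries was quantified per transcript as estimated counts, which the authors deposited as counts scaled from length-corrected abundances (unit per the file headers). FastQC, kallisto and hg38 are named in the submitters' processing notes. Versions, the reference transcripts and the use of strand are not given in the sources read for this work. Columns were matched to libraries by line and medium; the DMEM columns name the line only, with a suffix of unknown meaning. No column (0) was left unused.

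Each of 159837 transcripts was counted once by dropping 1312 repeats among 161149 rows. Transcripts were summed by symbol (27852 symbols), and 6878 transcripts without a symbol, 0.362% to 0.479% of a library, were left out. Sums were rounded to whole numbers, which left 20141 symbols above 0. filterByExpr (minimum 10, total 15) by line left 14123 genes. edgeR 4.0.16 (R 4.3.3) was run with TMM scaling and the quasi-likelihood test, with line and medium as terms and HSC4 against the mean of HSC3 and SAS as contrast. Adjusted p is by Benjamini-Hochberg at 0.05. Medium is the pairing term, and the labels give no other pairing. Deviations of the HPLM libraries from their line means correlated between lines at 0.109, 0.138 and 0.108, which measures a shared difference between media. On simulated counts with changes put into 200 of 13731 genes, the test found 70.1% of changes of 2-fold, 88.1% of 4-fold and 97% of 8-fold, and 7 unchanged genes also passed. In the simulation HSC3 and SAS had equal means, the changed genes were not the lowest in level, and far fewer genes changed than passed in the data. Its shares therefore do not carry over directly. A fold against a group at 0 is a bound from 3 counts per library and covers counting error only. It uses the mean of the other group, so the bound can be smaller against a single line or library. limma 3.58.1 and DESeq2 1.42.0 served as alternatives. Positions are GENCODE 29 (GRCh38), and promoters and the microRNA are RefSeq (GRCh38.p14).

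Named genes were the 4 given markers, up to 12 genes farthest from the nearer line in each direction with a mean of at least 5 CPM, genes absent or restricted by level, up to 4 members per list (of 45 lists with 1076 genes) by distance to the nearer line, and the longest runs of neighbours. That rule gave 232 genes, and a further 73 were chosen after seeing their values. The markers, lists and members were chosen with earlier results of these data known. Leaving out 8 chromosomes was added after the data were seen. Values of some genes are not reported here, although they are counted in the totals and lists.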

Additional observations from a re-analysis of the deposited data

How the results depend on the processing

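The counts of 5586 genes called, 2326 higher and 2049 lower stayed within 1.5 times under the other scalings (RLE and upper quartile), the low-count filters, DESeq2 (4921, 2023 and 1853), limma-voom, limma-trend and the sum over every row, except that library totals alone gave 1308 lower genes and 2977 higher. With HSC3 and SAS as a single group the counts were 11, 8 and 3, since the difference between these lines then enters the spread. Leaving out single libraries gave 1668 to 4826 calls, 893 to 2195 higher and 623 to 1851 lower genes. The lowest values came without the DMEM library of HSC4, and without its HPLM library the counts were 1927, 1042 and 737; both fits have a single HSC4 library and fewer residual degrees of freedom. Without the replicate block, the pairing of libraries by medium, the counts were 5215, 2286 and 1973. Limits of 0.25 and 5 CPM left 5 genes restricted to HSC4 and limits of 1 and 10 CPM left 9, of 14; the genes absent by level were 4 under either, of 6.

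Of 261 named genes past the threshold none changed sign. Under the 2-group fit 250 were no longer past it, under DESeq2 14, without a low-count filter 7, without the block 6 and without scaling factors 3. Without the DMEM library of HSC4 85 were lost, and without its HPLM library 70. With 1 culture per line and medium and 2 residual degrees of freedom, some changes of 2-fold and less may have been missed. In the simulation, whose setting differs from the data, 70.1% of 2-fold changes were called. The contrast sets a single line against 2, so what is particular to HSC4 cannot be told apart from what HSC3 and SAS happen to share.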

Other observations

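Single genes of regions that are often altered in squamous tumours lay on both sides. Of 9 listed and tested genes of 11q13, a stretch where 14 of the 25 genes in the window from NUDT8 to ANO1 were higher and 1 was lower (median log2 fold change 0.59), MYEOV at 84.5 and 106 CPM in HSC4 against 27.5 to 70.5 elsewhere, ANO1, a chloride channel, at 50.1 and 45.6 against 6.04 to 36.3 and SHANK2 at 5.22 and 7.48 against 2.88 to 4.47 were higher, while CCND1 was lower and PPFIA1, a liprin, was at 69.2 and 59.3 CPM against 56 to 91.4 and did not pass the test (edgeR adjusted p = 0.178). At 9p21 the neighbours CDKN2A and CDKN2B, inhibitors of cyclin-dependent kinases, lay on opposite sides: CDKN2B was higher, at 11.4 and 8.55 CPM against 4.08 to 7.48 (log2 fold change 0.87 ± 0.16, edgeR adjusted p = 0.0104). On 3q, 3 of 13 genes were higher and 1, ACTL6A, a chromatin remodelling subunit, was lower, at 114 and 127 CPM against 145 to 198.

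Transporters of amino acids and glucose were higher for 3 of 29 (10.3%, background 16.5%) and lower for 4 (13.8%, background 14.5%). SLC1A4, a neutral amino acid transporter, was at 12.1 and 13.4 CPM against 1.54 to 5.29, and SLC2A1, the glucose transporter GLUT1, at 216 and 273 against 129 to 159. SLC6A15, another neutral amino acid transporter, was nearly absent, at 0.19 and 0.323 CPM against 2.46 to 11.6 (log2 fold change −4.47). SLC7A2, which carries cationic amino acids, was at 0.19 and 0.43 against 1.15 to 5.34. The sulfotransferases SULT2B1, at 3.42 and 3.44 CPM against 0.162 to 0.462, and SULT1A1, at 4.51 and 6.4 against 0.371 to 1.31, were higher, and TIPARP, a target gene of AHR, was lower, at 26.8 and 28.3 CPM against 38.7 to 60.1 (log2 fold change −0.90 ± 0.14, edgeR adjusted p = 0.00592), although AHR itself was higher.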
